A study of Mus musculus with 10 samples.

Results

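The 8 genes described here are the metallothioneins Mt1 and Mt2, the zinc importers Slc39a14, Slc39a4 and Slc39a5, the metal exporters Slc30a1 and Slc30a10, and Mtf1, which encodes the zinc-sensing transcription factor that drives metallothionein transcription. They were chosen by name, with their values in these arrays already known, so their levels are given as a description and carry no test. All 8 were among the 26124 genes tested, and they are represented by 12 of 41174 probes. Of the 26124, 15111 had a gene symbol. The others were counted under the systematic name of their probe, so a gene may be counted more than once. Shares of all genes tested are shares of this set. Each of 10 Agilent arrays carried the liver RNA of a male C57BL/6N mouse in the Cy5 channel and a commercial mixture of mouse RNA, the common reference, in the Cy3 channel. By the labels, 3 mice were gavaged with maltose in an amount isocaloric to 5 g/kg ethanol, 4 mice with 5 g/kg ethanol and 3 mice with 7 g/kg ethanol. The maltose dose thus matches the calories of the 5 g/kg group and not of the 7 g/kg group. The labels give neither the age of the mice nor the time from gavage to tissue collection. For the reference channel they name this mixture but also give its tissue as liver. Replicates are numbered samples that the labels do not tie to litters or days, so p-values measure only the spread between these arrays.

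Metallothioneins are small cysteine-rich proteins that bind zinc and copper in the cytosol. In liver their genes are induced by zinc through the zinc-finger factor MTF-1, which binds metal response elements, and also by glucocorticoids, by interleukin-6 through STAT3, and by oxidants. ZIP proteins (Slc39 genes) move zinc and other divalent metals into the cytosol, and ZnT proteins (Slc30 genes) move them out of it, across the plasma membrane or into organelles. ZIP14, the product of Slc39a14, is the importer through which hepatocytes take up zinc during the acute-phase response. It also carries manganese and iron that is not bound to transferrin.

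The promoter windows of the 2 metallothionein genes and of the 2 exporter genes are shown because the metal response element is the sequence through which MTF-1 acts. Windows run from 250 bases before to 50 bases after the annotated start and come from RefSeq on GRCm38.p6, which holds a window for 6 of the 8 genes. Slc39a14 and Slc39a4 are named only. Capitals mark every match to the metal response element, searched as TGCACNC or TGCGCNC on both strands. All 4 windows lie on the plus strand, 5′ to 3′. They are Mt1 at chr8:94178839-94179138, Mt2 at chr8:94172368-94172667, Slc30a10 at chr1:185454598-185454897 and Slc30a1 at chr1:191906531-191906830.
Mt1: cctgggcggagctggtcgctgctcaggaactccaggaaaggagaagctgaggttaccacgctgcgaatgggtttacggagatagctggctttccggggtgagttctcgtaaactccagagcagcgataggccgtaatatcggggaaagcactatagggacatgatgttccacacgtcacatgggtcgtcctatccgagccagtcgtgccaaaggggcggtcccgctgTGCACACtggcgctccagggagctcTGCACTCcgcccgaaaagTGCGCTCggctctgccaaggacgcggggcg
Mt2: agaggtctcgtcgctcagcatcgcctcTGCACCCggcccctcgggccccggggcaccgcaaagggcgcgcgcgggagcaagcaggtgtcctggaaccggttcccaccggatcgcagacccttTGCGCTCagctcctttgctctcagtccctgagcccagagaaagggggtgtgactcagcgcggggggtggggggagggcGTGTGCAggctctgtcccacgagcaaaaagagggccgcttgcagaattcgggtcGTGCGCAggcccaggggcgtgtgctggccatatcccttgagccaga
Slc30a10: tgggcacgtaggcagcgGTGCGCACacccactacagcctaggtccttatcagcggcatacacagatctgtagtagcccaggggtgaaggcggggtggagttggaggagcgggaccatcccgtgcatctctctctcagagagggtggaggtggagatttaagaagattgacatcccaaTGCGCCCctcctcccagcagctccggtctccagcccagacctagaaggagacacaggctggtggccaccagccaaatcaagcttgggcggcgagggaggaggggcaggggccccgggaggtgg
Slc30a1: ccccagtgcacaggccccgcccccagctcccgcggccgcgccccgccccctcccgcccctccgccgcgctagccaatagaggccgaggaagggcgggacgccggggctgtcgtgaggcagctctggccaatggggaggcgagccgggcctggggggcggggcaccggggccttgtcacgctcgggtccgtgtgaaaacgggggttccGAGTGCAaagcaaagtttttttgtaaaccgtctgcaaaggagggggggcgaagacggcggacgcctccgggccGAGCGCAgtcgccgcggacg

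The Mt2 window held 4 matches, that of Mt1 held 3, that of Slc30a10 held 3 and that of Slc30a1 held 2. In Slc30a10, 2 of the 3 matches lie on opposite strands of the same stretch, GTGCGCAC. Of 32851 windows of this length, 25.7% held at least 1 match, 7.11% at least 2, 1.97% at least 3 and 0.517% at least 4. Of the windows not printed, Slc39a5 had 1 match in one of its windows and 0 in the other, and Mtf1 had 0. An antioxidant response element, searched as TGACNNNGC on both strands, matched once in Mt2, once in Slc30a1 and at 2 places in one Slc39a5 window, against 12.4% of windows with at least 1. The full palindromic glucocorticoid response element, searched on both strands, matched at 1 place in Mt1, against 0.475% of windows. A STAT element, TTCNNNGAA, was not matched in any of these windows, and 8.3% of all windows held it. A match describes the letters of the window and does not show binding. Sites outside the windows were not searched, so these counts do not cover the whole promoter of any gene. Whether the annotated start is the one used in liver was not tested.

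Each value below is the log2 ratio of liver over reference signal on 1 array after normalisation, so a gene at 0 gave equal signal in both channels. Mt1 was measured by 10 copies of its probe per array. In the maltose controls its log2 ratios were -2.36, -2.16 and -1.45. At 5 g/kg ethanol they were 0.96, 0.98, 1.48 and 0.46, and at 7 g/kg they were 2.01, 1.97 and 2.24. Every ethanol array lay above every control array, and every 7 g/kg array lay above every 5 g/kg array. The group means were -1.99 ± 0.48 (SD, n = 3), 0.97 ± 0.42 (SD, n = 4) and 2.07 ± 0.14 (SD, n = 3). The log2 difference from control was 2.96 (SE 0.22, 7.78-fold) at 5 g/kg and 4.07 (SE 0.24, 16.8-fold) at 7 g/kg. Between the ethanol doses it was 1.11 (SE 0.22, 2.16-fold). The SD between the copies of the probe on 1 array was 0.051 to 0.14, so the spread between control arrays and between 5 g/kg arrays was wider than that between spots.

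Mt2, the neighbouring gene, encodes the other main hepatic metallothionein. Its log2 ratios were -2.27, -1.93 and -1.37 after maltose. On the 5 g/kg arrays they were 0.14, 0.74, 1.19 and 0.17, and on the 7 g/kg arrays 1.43, 1.39 and 1.62. As for Mt1, none of the groups overlapped. The group means were -1.86 ± 0.45, 0.56 ± 0.50 and 1.48 ± 0.13 (SD, n = 3, 4 and 3). The log2 difference from control was 2.42 (SE 0.24, 5.35-fold) at 5 g/kg and 3.34 (SE 0.25, 10.1-fold) at 7 g/kg, with 0.92 (SE 0.24, 1.89-fold) between the doses. The 5 g/kg array with the highest Mt1 ratio, replicate 3, also had the highest Mt2 ratio, and replicates 1 and 4 were the lowest for Mt2. The log2 ratio of Mt1 minus that of Mt2 was -0.23 to -0.080 on the control arrays. It was 0.23 to 0.82 on the arrays of the lower ethanol dose and 0.58 to 0.62 on those of the higher, so the Mt1 ratio moved further than the Mt2 ratio. This order turned when the liver channel was taken alone, as given next.

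The labels name the same reference RNA for every array, which was not checked here. The Cy3 signal of the metallothionein spots nevertheless differed between groups. The unnormalised Mt1 reference signal was 186144 to 242226 on control arrays, 78183.5 to 141812 on 5 g/kg arrays and 47857 to 59576 on 7 g/kg arrays, while the liver signal was 31472 to 70473, 151429 to 228940 and 200014 to 229443. After quantile normalisation between arrays, the Mt1 reference channel was lower than in controls by a log2 difference of -0.78 at 5 g/kg and -1.69 at 7 g/kg. The latter was the third lowest of 26124 genes, of which 42 (0.161%) had a reference difference below -1. For Mt2 the reference channel differed by -0.59 and -0.94. For Slc39a14, whose signals were far dimmer, it differed by -0.039 and -0.023. The liver channel taken alone gave log2 differences from control of 1.61 (3.05-fold) and 1.92 (3.78-fold) for Mt1, and 1.75 (3.37-fold) and 2.23 (4.70-fold) for Mt2. In that channel alone the Mt2 differences were thus the larger, and between the doses they were 0.31 for Mt1 and 0.48 for Mt2. Between the doses the reference channel differed by -0.91 for Mt1 and -0.35 for Mt2. For Mt1 it thus moved further between the doses than the liver channel did. The unnormalised Mt1 liver signals of the ethanol groups overlapped. Why the reference channel differed was not tested. No spot was marked as saturated.

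**Figure D1:**
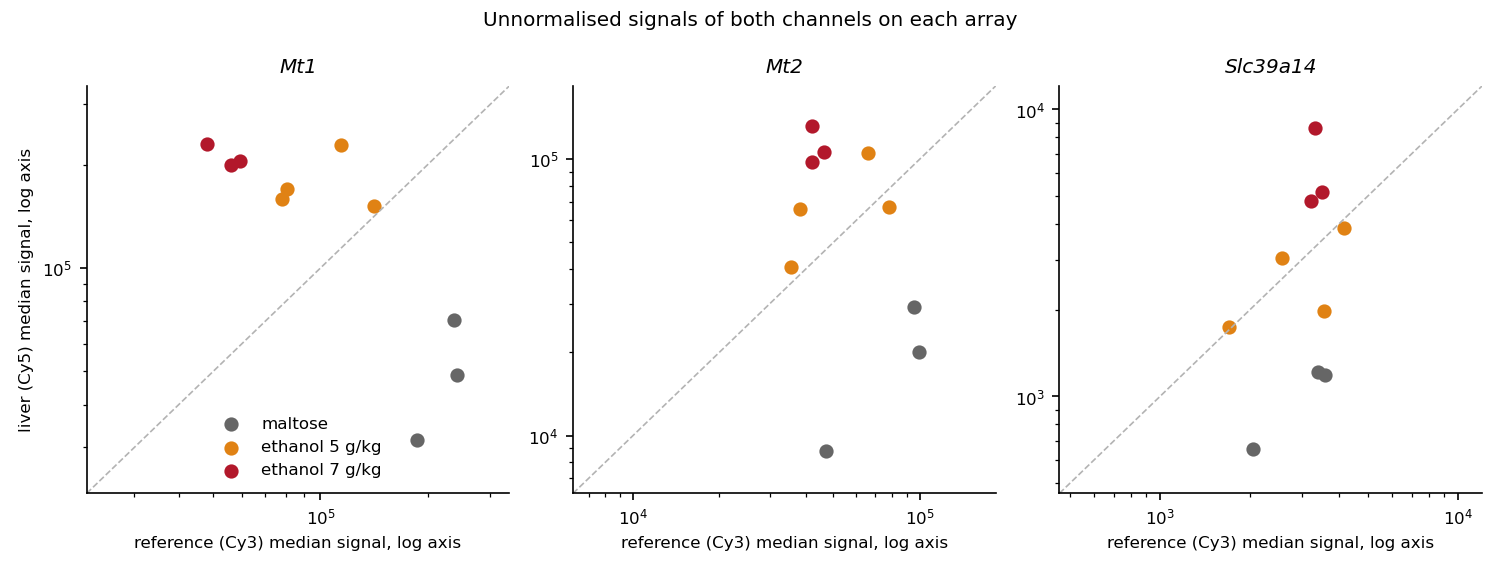
Unnormalised median signals of liver (Cy5, vertical) against reference (Cy3, horizontal) for Mt1, Mt2 and Slc39a14, both on log axes, with 1 point per array coloured by group and a dashed line where the channels are equal. For Mt1, points move from lower right in controls (reference 186144 to 242226) to upper left at 7 g/kg (reference 47857 to 59576), whereas for Slc39a14 the 7 g/kg arrays differ from the control arrays mainly in the vertical direction.

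Among the importers, Slc39a14 had the largest differences between groups. Its log2 ratios were -1.26, -0.99 and -1.01 after maltose. The 5 g/kg arrays had 0.035, 0.31, 0.51 and -0.41, and the 7 g/kg arrays 0.87, 0.80 and 1.49. No groups overlapped, and replicates 3 and 4 of the 5 g/kg group were again the highest and lowest of their group, as for Mt1. The log2 difference from control was 1.20 (SE 0.20, 2.29-fold) at 5 g/kg and 2.14 (SE 0.22, 4.40-fold) at 7 g/kg, and 0.94 (SE 0.20, 1.92-fold) between the doses. A second probe of the gene gave 1.30, 2.23 and 0.93, also without overlap, from 3 control arrays, 3 arrays at 5 g/kg and 2 at 7 g/kg. The liver channel alone gave 1.11 and 2.05 against control, close to the ratio. Loss or gain of a cell type and a change of RNA per cell cannot be told apart in whole liver, for this gene or any other here.

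Slc39a4 encodes ZIP4, best known as the importer of dietary zinc in the intestine. Its log2 ratios were -0.082, -0.25 and -0.50 after maltose, and -0.23, -0.29, -0.24 and -0.40 on the 5 g/kg arrays. The 7 g/kg arrays had 0.012, 0.15 and 0.51. The 5 g/kg arrays lay within the range of the controls, and the 7 g/kg arrays lay above both groups. The log2 difference from control was -0.013 (SE 0.13) at 5 g/kg and 0.50 (SE 0.14, 1.42-fold) at 7 g/kg. Within slides the latter was 0.26 and 1.02. The highest value came from replicate 3 of the 7 g/kg group, and without that array the difference was 0.36.

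Slc39a5 encodes ZIP5, an importer of the basolateral membrane of epithelial cells. Its log2 ratios ran from -0.35 to -0.28 after maltose, from -0.31 to -0.072 on 5 g/kg arrays and from -0.27 to -0.21 on 7 g/kg arrays. The 7 g/kg arrays lay above the controls by a narrow margin, with a log2 difference of 0.069 (SE 0.099). At 5 g/kg the groups overlapped, with a difference of 0.11 (SE 0.093).

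**Figure D2:**
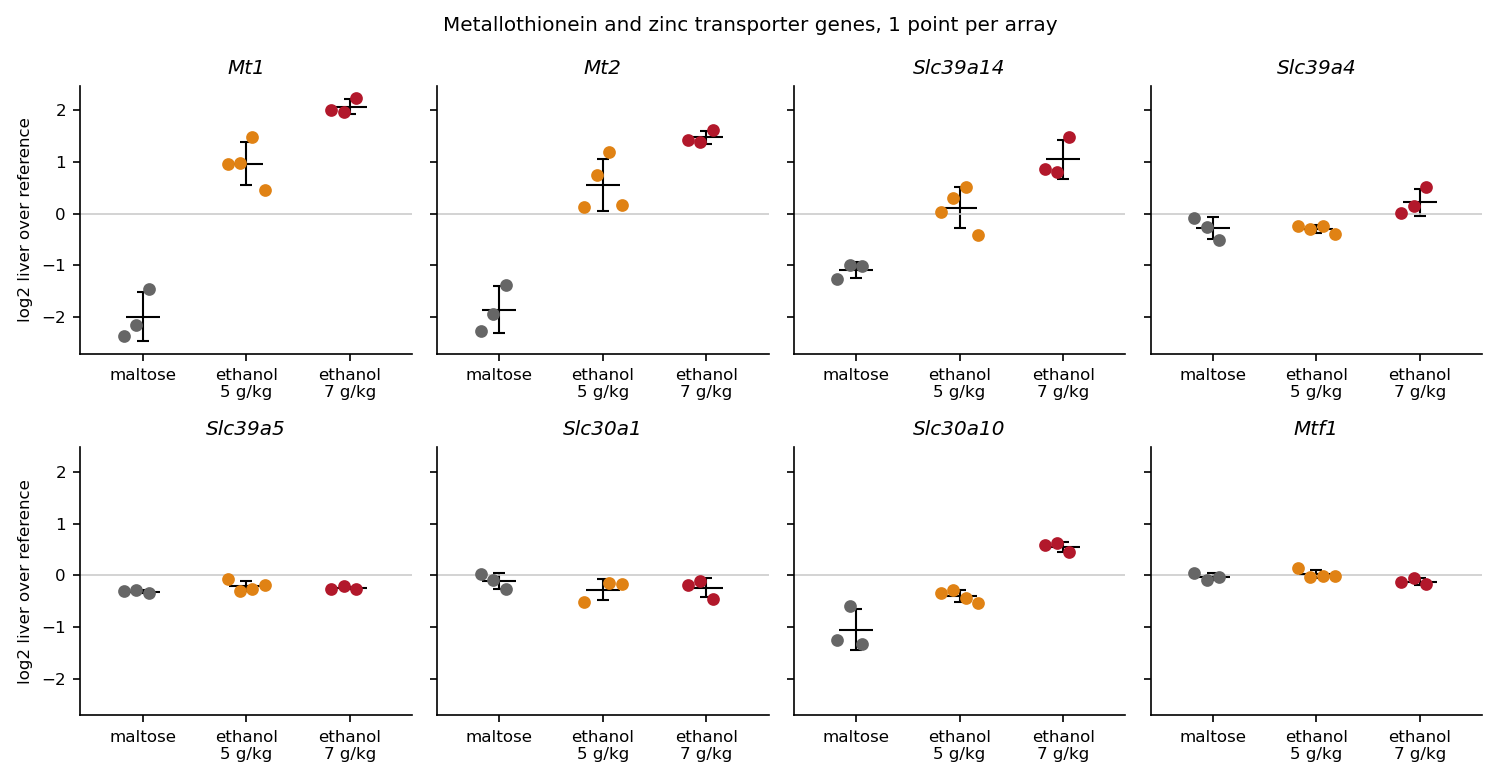
Log2 ratio of liver over reference (vertical axis) for the 8 genes in maltose, 5 g/kg and 7 g/kg ethanol mice, with 1 point per array, a horizontal bar at the group mean and error bars of 1 SD. Mt1, Mt2, Slc39a14 and Slc30a10 separate the 3 groups in the order of dose, while Slc39a5, Slc30a1 and Mtf1 stay near 0, with all 3 groups between -0.52 and 0.14.

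Of the exporters, Slc30a10 had the larger differences. Its protein, ZnT10, is the exporter of manganese at the cell surface of hepatocytes and enterocytes. The log2 ratios were -1.25, -0.60 and -1.33 after maltose. They were -0.34, -0.29, -0.43 and -0.55 on the 5 g/kg arrays, and 0.58, 0.62 and 0.44 on the 7 g/kg arrays. None of the groups overlapped, although the highest control, replicate 2, came close to the lowest 5 g/kg array, replicate 4. The log2 difference from control was 0.66 (SE 0.15, 1.58-fold) at 5 g/kg and 1.61 (SE 0.16, 3.05-fold) at 7 g/kg, and 0.95 (SE 0.15, 1.93-fold) between the doses. The liver signal of this probe was dim, at 71 to 105 units in controls against 437 to 509 at 7 g/kg, and the scanner's own processed ratio gave 1.23 and 2.36 against control. A second probe stood well above background in 1 of 3 controls and on all ethanol arrays. It gave 1.03 and 1.59 against control without overlap, and 0.56 between the doses with overlap.

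Slc30a1 encodes ZnT1, the zinc exporter of the plasma membrane and a known target of MTF-1. By its brighter probe the log2 ratios were 0.023, -0.086 and -0.27 after maltose, and -0.52, -0.15 and -0.18 on the 3 arrays of the 5 g/kg group that had a value. The 7 g/kg arrays had -0.18, -0.10 and -0.45. All groups overlapped, with log2 differences from control of -0.17 (SE 0.14) and -0.13 (SE 0.14). Its second probe gave 0.18 (SE 0.12) without overlap and 0.35 (SE 0.13) with overlap, so the probes disagree in sign and no direction is given for this gene.

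**Figure D3:**
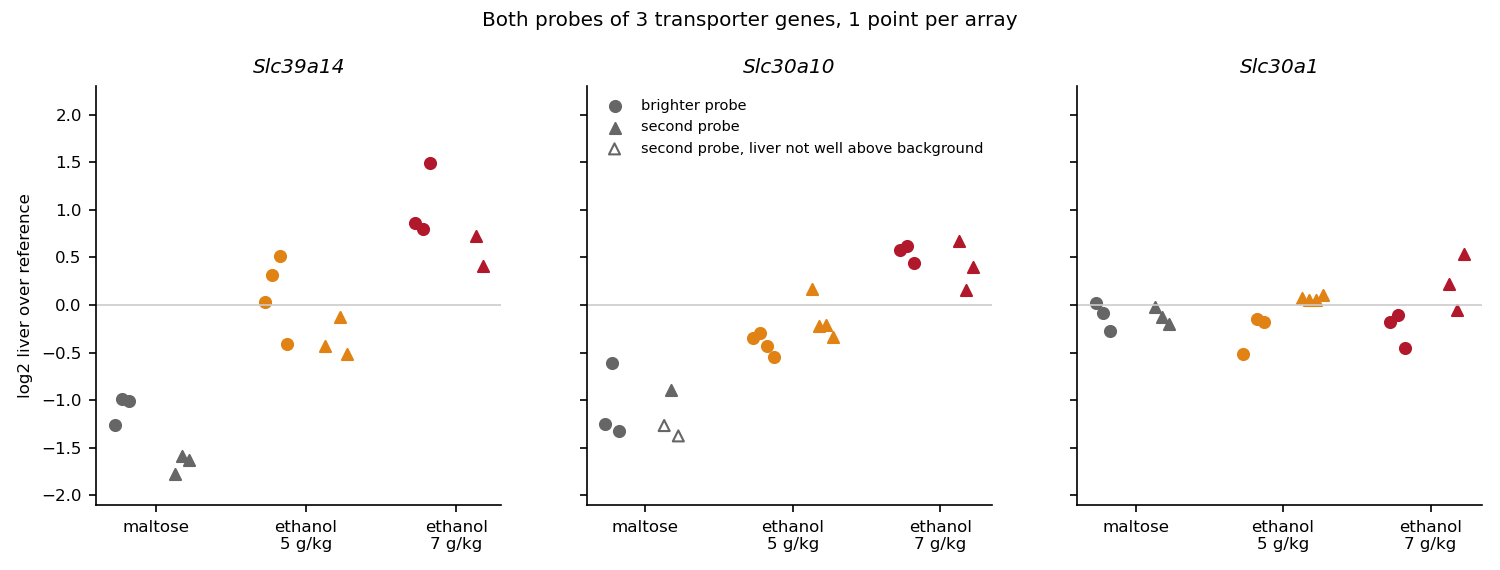
Log2 ratio of liver over reference for both probes of Slc39a14, Slc30a10 and Slc30a1, with 1 point per array by group, circles for the brighter probe and triangles for the second (open where the liver channel was not well above background). Both probes of Slc39a14 and Slc30a10 are higher at 7 g/kg than in controls, whereas the Slc30a1 probes differ from control by -0.13 and 0.35.

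Mtf1 itself stayed near the level of the reference. Its log2 ratios were 0.040, -0.086 and -0.028 after maltose. The 5 g/kg arrays had 0.14, -0.032, -0.0091 and -0.014, and the 7 g/kg arrays -0.13, -0.061 and -0.18. The differences from control were 0.046 (SE 0.093) and -0.097 (SE 0.099), with overlap, and the 7 g/kg arrays lay below the 5 g/kg arrays by a log2 difference of -0.14 (SE 0.093). A second probe was not well above background on any array. The signal of the first was 85 to 149 units, so small differences of this gene are measured close to background.

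Over the 8 genes by their brighter probe, groups did not overlap for 4 genes at 5 g/kg against control, all higher, beside 16.9% of all genes tested (9.29% higher, 7.65% lower). At 7 g/kg against control this held for 6 genes, all higher, beside 25.4% of all genes (13.1% higher, 12.3% lower). Between the doses it held for 6 genes, of which 5 were higher at 7 g/kg and Mtf1 was lower, beside 11% of all genes (4.87% higher, 6.13% lower). The median log2 difference of the 8 genes was 0.38, 1.05 and 0.72, beside 0.0026, 0.012 and 0.0046 over all genes. The genes were chosen with these comparisons known, so the counts describe them only. The 2 ethanol groups share their 3 controls.

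The arrays came from 4 slides, of which none held 1 group alone, and differences within slides kept their sign for Mt1, Mt2, Slc39a14 and Slc30a10. Within the 3 slides that hold both groups, Mt1 at 5 g/kg exceeded control by 1.91 to 3.32 and Mt2 by 1.54 to 2.68, while Slc39a14 differed by 0.60 to 1.30 and Slc30a10 by 0.31 to 0.90. Within the 2 slides with 7 g/kg and control arrays, the differences were 3.69 to 4.18 for Mt1, 2.99 to 3.36 for Mt2, 1.85 to 2.50 for Slc39a14 and 1.18 to 1.77 for Slc30a10. Between the doses, over 3 slides, they ranged from 0.50 to 1.78 for Mt1, 0.20 to 1.46 for Mt2, 0.29 to 1.90 for Slc39a14 and 0.87 to 1.05 for Slc30a10. Of these 4 genes the range was widest for Slc39a14 and narrowest for Slc30a10. Each difference within a slide, against control or between doses, sets 1 array against 1 array.

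The other genes of these families were tested in the fit across all genes, with limma and Benjamini-Hochberg adjustment. Of all genes tested, 3.8% passed at 5 g/kg against control (2.23% higher, 1.57% lower), 9.01% at 7 g/kg (4.66% higher, 4.35% lower) and 1.57% between the doses (0.662% higher, 0.907% lower). Of the 14 other ZIP and ZnT genes tested, of 19 listed, 0 passed at 5 g/kg against control, where 2 had an unadjusted limma p under 0.05. At 7 g/kg 5 of the 14 rose and 0 fell, with a median log2 difference of 0.35. The 5 include Slc39a6, which passed the filter on dim signal through ethanol arrays alone. Across the 27 zinc, copper, manganese and iron transport genes tested, metallothioneins Mt3 and Mt4 included, 5 had an unadjusted limma p under 0.05 at 5 g/kg and 0 passed the adjusted threshold. Of all genes tested, 4046 (15.5%) had an unadjusted p under 0.05 in that comparison, so these counts lie near the background. Mt3 and Mt4, the metallothioneins known from brain and squamous epithelium, differed from control at 7 g/kg by -0.27 (SE 0.14) and 0.28 (SE 0.16) and did not pass (limma adjusted p = 0.324 and 0.399).

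Slc39a6, an importer of the cell surface, was not well above background in the liver channel of any of the 3 control arrays, and it passed the filter on dim signal through ethanol arrays alone. At 7 g/kg, where 2 of 3 arrays were well above background, its log2 ratio was higher by 0.69 (1.61-fold, limma adjusted p = 0.00799). The liver channel after loess and Aquantile scaling gave 1.72-fold for this comparison. There the dim group was set at the higher of its own signal and the lowest signal well above background. This figure is open to dye bias, is larger than that of the ratio and is no lower limit. Slc39a7 and Slc30a7, which carry zinc out of and into the secretory pathway, rose by 0.46 (limma adjusted p = 0.0274) and 0.57 (limma adjusted p = 0.0336). Slc39a10 rose by 0.39 (limma adjusted p = 0.0394) and Slc39a11 by 0.42 (limma adjusted p = 0.0413). Slc39a11 also rose from 5 to 7 g/kg by 0.59 (limma adjusted p = 0.0157), and it was the only one of the 27 transport genes to pass between the doses. These are far smaller differences than those of Mt1, Mt2 and Slc39a14. With slide as a block, Slc39a10 and Slc39a11 no longer passed at 7 g/kg (limma adjusted p = 0.109 and 0.098). Slc39a7, Slc39a10, Slc39a11 and Slc30a7 lost the 7 g/kg call under 8 to 12 of 22 alternatives, including, for each, the omission of control replicate 1 or of 7 g/kg replicate 1 or 3. The call of Slc39a11 between the doses was lost without 5 g/kg replicate 1 or 7 g/kg replicate 1 or 3.

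**Figure D4:**
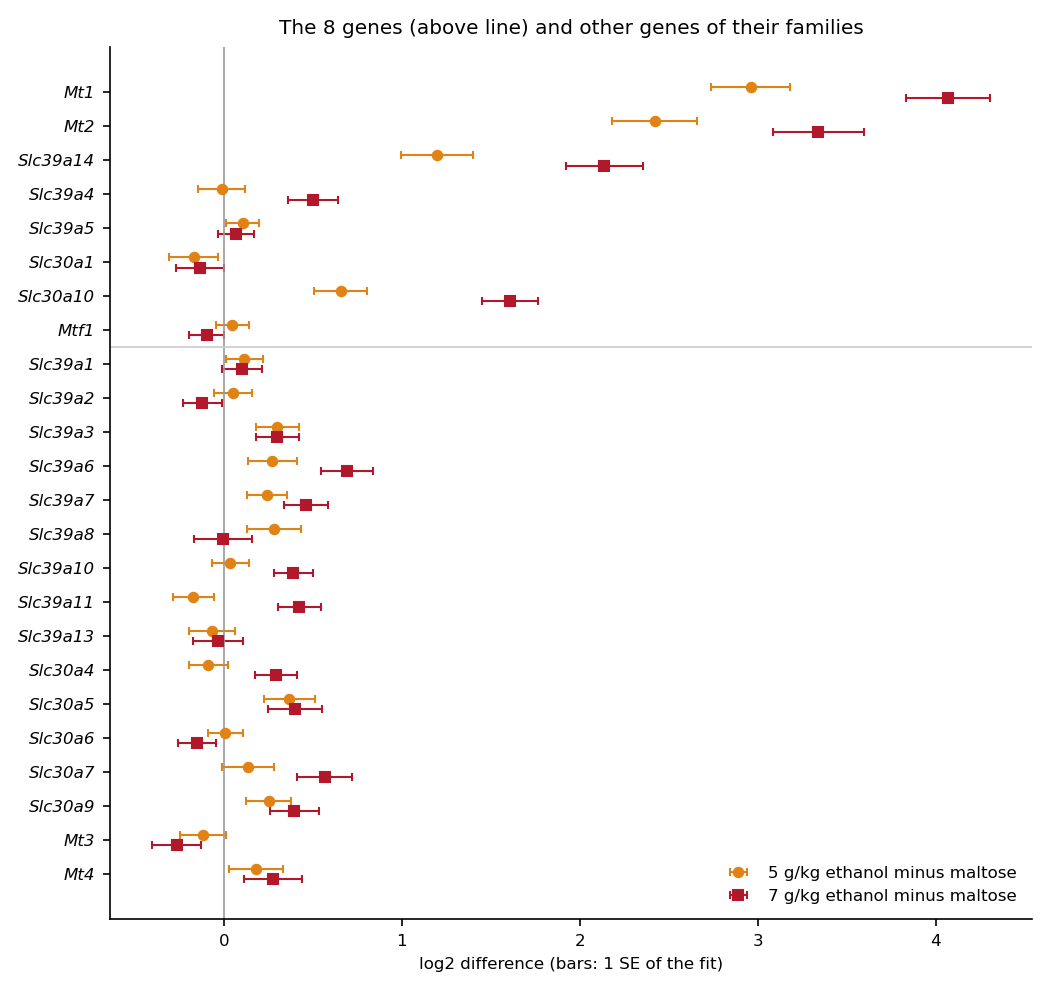
Log2 difference from maltose (horizontal axis) at 5 g/kg (circles) and 7 g/kg (squares) for the 8 genes, above the line, and for the other ZIP, ZnT and metallothionein genes tested, below it, with bars of 1 SE of the fit. Mt1, Mt2, Slc39a14 and Slc30a10 reach 1.61 to 4.07 at 7 g/kg, and no other family member exceeds 0.69, the value of Slc39a6, which was not well above background in controls.

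Of 11 genes of copper, manganese and iron transport, 0 passed at 5 g/kg (3 had an unadjusted limma p under 0.05, beside 15.5% of all genes), and 1 rose and 1 fell at 7 g/kg. Slc11a2, the divalent metal transporter DMT1, rose by 0.73 (SE 0.20, limma adjusted p = 0.0373). Ccs, the copper chaperone of superoxide dismutase, fell by 0.52 (SE 0.10, limma adjusted p = 0.00543). Slc11a2 lost its call under 9 of 22 alternatives, among them the omission of any 1 control array or of 7 g/kg replicate 2 or 3, and Ccs under 1. The transport genes that passed at 7 g/kg numbered 7 of 27, Slc39a6 included. They numbered 2 to 4 without control replicate 1 or 3 or any 1 of the 7 g/kg arrays. Atp7a and Atp7b, the copper-exporting ATPases, and Slc40a1, the iron exporter ferroportin, did not pass.

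Among 8 genes that encode known regulators of metallothionein transcription other than Mtf1, Stat3 had the largest difference. It rose by 0.91 at 5 g/kg (SE 0.14, limma adjusted p = 0.00167) and by 1.33 at 7 g/kg (SE 0.15, limma adjusted p = 5.89e-05). Il6st, the signalling subunit of the interleukin-6 receptor, rose at 7 g/kg by 0.41 (limma adjusted p = 0.0475), and Keap1, the inhibitor of NRF2, fell by 0.48 (limma adjusted p = 0.0182). With slide as a block neither of these 2 passed (limma adjusted p = 0.0696 and 0.0729). Without 1 array, Keap1 lost its call when control replicate 1 or 2 or 7 g/kg replicate 2 was omitted, and Il6st when any control or 7 g/kg array was. Nr3c1, the glucocorticoid receptor, and Nfe2l2, which encodes NRF2, differed at 7 g/kg by -0.22 (SE 0.11) and -0.13 (SE 0.12) and did not pass.

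Known targets of those inducing pathways were counted in the same fit. Of 13 acute-phase genes induced by interleukin-6, 9 rose at 5 g/kg and 12 at 7 g/kg, 6 rose from 5 to 7 g/kg, and 0 fell. Their median log2 differences were 1.31, 2.41 and 1.06. Fga, a fibrinogen chain, rose by 1.45 at 5 g/kg and 2.26 at 7 g/kg (limma adjusted p = 0.000224 and 1.95e-06). Lcn2, the iron-siderophore binding protein lipocalin 2, rose by 3.21 and 5.27 (limma adjusted p = 0.0014 and 1.63e-05). Of 9 glucocorticoid targets, 4 rose at 5 g/kg and 5 at 7 g/kg, 0 passed between the doses in limma, adjusted or at an unadjusted p under 0.05, and the medians were 0.59, 0.60 and 0.018. Their differences from control ran from -0.034 to 2.53 at 5 g/kg and from -0.39 to 2.56 at 7 g/kg, Cdkn1a being the highest. Cdkn1a, the cell cycle inhibitor p21, rose by 2.53 and 2.56 (limma adjusted p = 3.95e-07 and 2.65e-07), and Sgk1, a serum- and glucocorticoid-induced kinase, by 0.96 and 0.70 (limma adjusted p = 0.000524 and 0.00326).

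Of 10 NRF2 targets, 1 rose at 5 g/kg, 3 rose and 3 fell at 7 g/kg, and 2 rose and 0 fell from 5 to 7 g/kg. Their median log2 differences were -0.039, -0.018 and -0.082, and at 7 g/kg against control they ran from -0.67 to 1.23. Gstm1, a glutathione transferase, rose by 0.43 and 1.23 (limma adjusted p = 0.0283 and 1.06e-05), of which the 5 g/kg call was lost with slide as a block (limma adjusted p = 0.0598) and without control replicate 1 or 3 or 5 g/kg replicate 1, 2 or 3. Hmox1, which breaks down haem, rose at 7 g/kg by 1.01 (limma adjusted p = 0.000688) and from 5 to 7 g/kg by 0.65 (limma adjusted p = 0.0334), and it differed at 5 g/kg by 0.36 without passing. The counts of the 3 target lists together moved with single arrays. At 5 g/kg 14 genes passed, 7 without control replicate 3, 9 without control replicate 1 and 9 without 5 g/kg replicate 1. Between the doses 8 passed, and 1 to 5 without 5 g/kg replicate 1 or 2 or any 1 of the 7 g/kg arrays.

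The arrays at 5 g/kg also differed among themselves in the acute-phase list. The mean of the 10 acute-phase genes with a value on every array, relative to the control mean, was 1.61, 1.28, 2.64 and 0.44 on replicates 1 to 4. Replicate 3 was thus the highest and replicate 4 the lowest. Mt1 and Slc39a14 had the same highest and lowest arrays but the reverse order of replicates 1 and 2, Mt2 was lowest on replicate 1, and Slc30a10 was highest on replicate 2. At 7 g/kg it was 2.63 to 3.14. The mean of 7 glucocorticoid targets lay between 0.68 and 0.92 at 5 g/kg, with replicate 2 the highest, and between 0.64 and 0.92 at 7 g/kg. Cdkn1a, which had the largest difference of that list at both doses, is among the 7. The mean of 8 NRF2 targets lay between -0.11 and 0.077 at 5 g/kg, within the range of the controls, and between 0.10 and 0.20 at 7 g/kg. These values are a description, and their part in the metallothionein levels was not tested.

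Likeness to Mt1 was measured as the root mean square difference of log2 ratios over the 10 arrays, each gene being centred on its control mean, among 13577 genes with a value on every array. The most alike was Mt2, at 0.55. The next with a symbol were Lcn2 (0.88), Cdkn1a (0.97), Thrsp (1.11), Il1r1 (1.20) and Thbd (1.21). Thrsp is a lipogenic factor, Il1r1 the interleukin-1 receptor and Thbd thrombomodulin. Their log2 differences from control at 5 and 7 g/kg were 1.94 and 4.70 for Thrsp and 1.76 and 2.48 for Il1r1. Thbd was not well above background on any control array and passed the filter on dim signal through ethanol arrays alone. Its ratio differed by 1.98 and 2.39. Its liver channel, scaled as for Slc39a6, gave 4.12-fold and 5.34-fold at the 2 doses. All of these figures rest on control signals near background. These genes were picked for their likeness and are listed with no test.

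Of 8 hepatocyte markers listed, 6 were on the array, and all 6 were well above background on every array. Markers of other cells were too, among them 5 of 5 Kupffer cell, 6 of 6 stellate cell and 5 of 5 biliary markers tested, so detection alone does not check the liver label. The mean log2 ratio of the hepatocyte markers was 0.18 to 0.44 after maltose, 0.42 to 0.66 on 5 g/kg arrays and 0.21 to 0.57 on 7 g/kg arrays. Of the 6, Ttr rose at 7 g/kg by 0.69 (limma adjusted p = 0.0489). Means of some other marker lists also differed between the groups. The mean of 7 neutrophil markers was -0.25 to -0.14 after maltose, -0.20 to 0.29 on 5 g/kg arrays and 0.11 to 0.30 on 7 g/kg arrays, where 2 of 7 rose, S100a8 and S100a9. On all arrays 6 of 7 were well above background. S100a8 was not on any control array, and it passed the filter on dim signal through ethanol arrays alone. The median log2 differences of the 7 were 0.096 and 0.11, and the highest were 0.51 and 1.41. The mean of 6 endothelial markers was -0.47 to -0.28, -0.18 to 0.074 and -0.097 to 0.039, with 1 and 2 of 6 higher at the ethanol doses. Their median log2 differences were 0.10 and 0.12, and single genes ran from -0.017 to 1.29 and from -0.28 to 1.72. By the liver channel scaled as for Slc39a6, Lyve1 had the largest rise, with group means of 8.06, 9.38 and 9.83. Tek, also in the mean, was not well above background on any control array and passed the filter on dim signal through ethanol arrays alone. The mean of 6 stellate cell markers was -0.27 to -0.011, 0.079 to 0.21 and 0.087 to 0.23, with 1 and 0 of 6 higher. Their median log2 differences were 0.16 and 0.33, with single genes from -0.062 to 0.74 and from -0.13 to 0.54. Of Kupffer cell, biliary, pancreatic and adipocyte markers, 0 rose, and 1 biliary marker fell at 5 g/kg. Of 3 enterocyte markers tested, 1 fell at both doses, and the list mean was 0.12 to 0.24, -0.23 to -0.024 and -0.32 to -0.25. The median log2 differences of the 3 were -0.15 and -0.030, and the lowest were -0.58 and -1.46. The part of these cells in the metal gene values was not tested. The arrays had a median liver signal of 121 to 219 units, and their number limits the precision. Each array held 45018 spots, of which 1639 were controls. Of the others, 67.3% to 86.2% were well above background in the liver channel.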

How the data were processed

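Liver RNA (Cy5) was measured against a common reference RNA (Cy3) on 10 arrays. The deposited scanner files, written by Agilent Feature Extraction 11.5.1.1 per the file headers, give the median intensity of each spot and its background and a log10 ratio of processed, dye-normalised signals. The deposited series table holds log2 ratios, as read from a slope of 3.32 to 3.34 against the scanner's log10 values, and its column medians ran from -0.073 to 0.076. Neither its centring nor its filtering is given in the sources used here. Genes were named through RefSeq accessions (59.2% of probes).

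Intensities were corrected by normexp (offset 50) and loess within arrays in limma 3.58.1 (R 4.3.3). Control spots and outlier-marked spots (2.42% to 5.83% of those that were not controls) were left out. Probes well above background on at least 3 arrays and genes with at least 2 values per group were kept, and the brightest probe stood for a gene. The 3 group means were fitted over 10 arrays with empirical Bayes moderation, two-sided, with Benjamini-Hochberg adjusted p under 0.05. The fit was tested on simulated data. Members and lists were chosen with earlier results of these data known. Named genes were the members, transport and regulator genes passing in any comparison, the 5 genes most like Mt1, and up to 2 per target list. Alternatives changed background, scaling, channel, source, filter, probe, blocks and arrays. Requiring 3 values per group was added after seeing the data.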

Additional observations from a re-analysis of the deposited data

Results flagged for a closer look

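Mtf1 at 5 g/kg had 1 array far from the other 3. Replicate 1 had a log2 ratio of 0.14, and the others had -0.032, -0.0091 and -0.014. The gap to the nearest array was 0.867 of the range of the group, above Dixon's critical value for 4 arrays. The search covered 27 genes and 3 other probes with a value on all 4 arrays, and chance flags about 1 in 20 groups. The genes were members, others named here and further genes most like Mt1, with Serpina3n and Orm2 among them. Slc30a1 by its brighter probe, lacking a value on an array of this group, was left out. Without that array the log2 difference of Mtf1 from control at 5 g/kg was 0.0061.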

How the results depend on the processing

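Of 590 alternative values of the 8 genes, 543 moved by less than 1 SD between replicates and 47 by more. The sign differed in 19 of them, for Slc39a4, Slc39a5, Slc30a1 and Mtf1, and in 0 of those of Mt1, Mt2, Slc39a14 and Slc30a10. The liver channel alone gave Mt1 1.61, 1.92 and 0.31 and Mt2 1.75, 2.23 and 0.48 (5 g/kg and 7 g/kg against control, then between doses). Within slide 2, Mt1 and Mt2 differed from control at 5 g/kg by 1.91 and 1.54, and between doses by 1.78 and 1.46, with 0.50 and 0.20 within slide 1. Without 1 array, Mt1 ranged over 2.77 to 3.23, 3.88 to 4.34 and 0.94 to 1.28. Averaging the probes of Slc30a1 turned its differences from control to 0.049 and 0.11. Over all genes 992, 2355 and 410 passed. The scanner ratio gave 520 at 5 g/kg and 116 between doses, the deposited series values 584 and 138, and the liver channel alone 120, 592 and 47. Without 1 array the counts were 469 to 1068, 1506 to 2360 and 203 to 423; the lowest came without control replicate 1 in both comparisons with control and without 7 g/kg replicate 1 between doses, and control replicates 2 and 3 gave 634 and 505 at 5 g/kg. Median centring moved the share of higher calls from 58.7%, 51.7% and 42.2% to 75.4%, 67.0% and 52.4%. Of the transport genes, 7 passed at 7 g/kg against 2 by the scanner ratio, 2 by the table, 1 by the liver channel and 2 to 8 without 1 array; 1 passed between doses against 0 by those 3 sources, 0 with the replicate block and 0 to 1 without 1 array. Of the target genes, 14, 23 and 8 passed. The scanner ratio and the table each gave 8 at 5 g/kg and 1 between doses, the liver channel 3, 11 and 0, 2-group fits 4 between doses, and fits without 1 array 7 to 16, 17 to 24 and 1 to 12. The cause of these shifts was not tested. Replicate numbers did not pair the arrays (r of -0.20 to 0.20 for equal numbers, and 2 of 9 arrays correlated best with their own). With the replicate block Mt1 was 3.13, 4.07 and 0.94 and Mt2 2.55, 3.34 and 0.79.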
